A study of Danio rerio with 16 samples.

Results

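The 9 genes described here are expressed in the red cells of zebrafish larvae. They were chosen by name, as genes whose deposited symbol was hbbe1.1, hbbe1.2, hbbe2, hbae3, alas2, slc4a1a, epb41b, cahz or gata1a, and all 9 were found among 31812 genes with an ID. Larvae of the WIK strain were pooled by 30 at 5 days post-fertilization (dpf), after 6 h in a dish with vehicle (DMSO, the control) or with 1.6 µM triptolide (TP). TP is a diterpenoid of a medicinal vine that blocks transcription by RNA polymerase II. RNA of 8 control and 8 TP pools was sequenced, each pool from its own dish, and the methods call them biological replicates. All 16 pools were wild type, and whole animals were lysed, so every cell type of the larva contributed RNA.

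A larva of this age lives on its primitive red cells, which form in the early embryo, enter the circulation and carry embryonic hemoglobin. Hemoglobin joins alpha and beta globin chains with heme, and the zebrafish genome holds its globin genes in a pair of clusters, on chromosomes 3 and 12. Around the globins, a red cell needs heme synthesis, a membrane skeleton that withstands the circulation, an anion exchanger and carbonic anhydrase for carbon dioxide transport, and the transcription factor that switches these genes on. Mature zebrafish red cells keep a nucleus.

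The measurement was the number of reads aligned to each Ensembl transcript, summed here per gene and divided by the library total, as CPM (counts per 1000000 counts). Totals were 19679120 to 75490916 counts in control libraries and 26631852 to 41093922 in TP libraries. With that scaling, 11380 of 24462 genes tested differed between TP and control at an adjusted p of 0.01 or less (edgeR's quasi-likelihood test, Benjamini-Hochberg over all genes), or 46.5%. Lower genes made up 41.9% of those tested, higher genes 4.59%, and the log2 fold change had a median of -0.35 over all genes. TMM factors, which centre the bulk of genes near no change, brought this median to -0.00107 and the calls to 32.4% of genes, 16.5% lower. A change is therefore given under both scalings where the choice matters. Liver transcripts were present, with summed hepatocyte markers at 4539 to 8662 CPM in control and 4496 to 6874 CPM in TP libraries.

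Of the 9 erythroid genes, 2 were lower in TP treated larvae at the threshold, cahz and slc4a1a, and 0 were higher. This is 22.2% lower and 0% higher, against 41.9% and 4.59% of all genes tested. At an unadjusted p of 0.05, 3 were lower and 0 higher, the added gene being gata1a. The share of all genes at that unadjusted p was not worked out, so this count has no background to be read against. TMM factors and DESeq2 each called 2 members lower and 0 higher. TMM factors called 32.4% of all genes, 16.5% lower and 15.9% higher. DESeq2 called 35.7% of all genes, 17.8% lower and 17.9% higher. The 2 genes passed the threshold in every alternative that was run. In RNA of whole larvae, fewer red cells and less RNA per red cell cannot be told apart.

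The embryonic globins were the most abundant of the 9 genes. Per kilobase of transcript, control larvae held hbbe1.1, an embryonic beta globin, at 197 ± 41.8 CPM per kb (SD, n = 8), and hbae3, an embryonic alpha globin, at 151 ± 34.4. The beta globins hbbe1.2 and hbbe2 followed at 90.3 ± 24.9 and 42.6 ± 10.4 CPM per kb. The ranges of neighbours overlapped from hbbe1.1 to hbbe1.2, and hbbe2 (29.5 to 64.6) lay just under hbbe1.2 (65.4 to 139). The carbonic anhydrase gene cahz came next, at 17.5 ± 2.54 CPM per kb, and overlapped neither neighbour. Then came gata1a at 5.12 ± 0.674, slc4a1a at 4.25 ± 1.22 and alas2 at 3.85 ± 0.867 CPM per kb, whose ranges overlapped. The place of gata1a depends on the annotation, since 87.7% of its control counts were on a transcript of only 730 bases. epb41b was lowest at 0.431 ± 0.160 CPM per kb, apart from alas2. In TP larvae the order was the same except that slc4a1a, at 2.40 ± 0.282 CPM per kb, lay below alas2, at 3.27 ± 0.724.

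**Figure D1:**
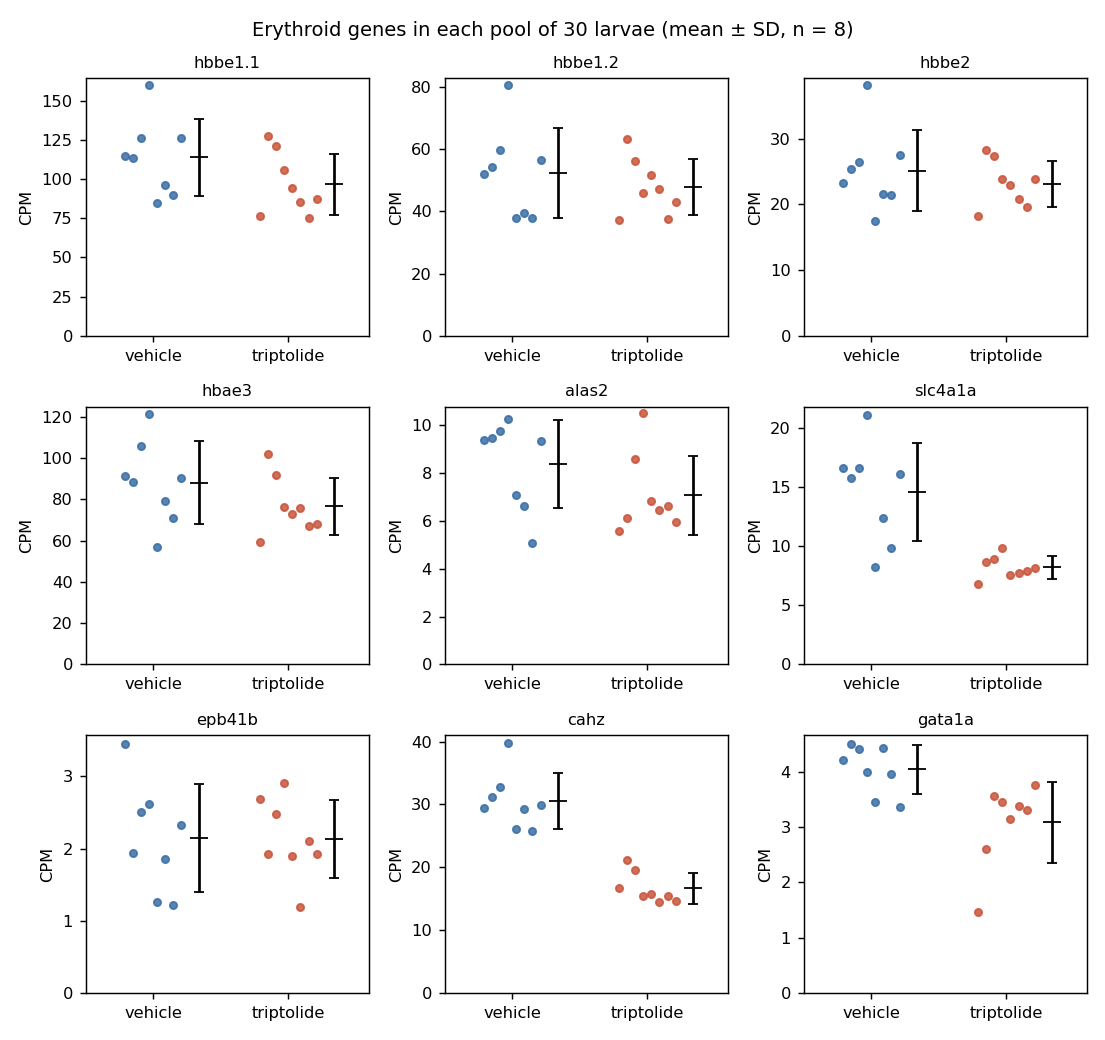
CPM (vertical axes, 1 panel per gene, each from 0) of the 9 erythroid genes in 8 control (vehicle) and 8 TP (triptolide) pools, 1 point per pool, with bars for the group mean ± SD. The cahz points separate, with every TP pool at or under 21.1 CPM and every control pool at or above 25.8 CPM, while the globin points overlap.

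hbbe1.1 (ENSDARG00000089963) is annotated on GRCz10 chromosome 3 from 54859451 to 54877454. Its control pools ran from 84.6 to 159.8 CPM (median 114) and its TP pools from 74.9 to 127 CPM (median 90.6). The groups overlapped widely, with 2 TP pools under the lowest control pool. Means were 114 ± 24.4 and 96.5 ± 19.6 CPM (SD, n = 8), a log2 fold change of -0.24 (95% interval -0.49 to 0.019, adjusted p = 0.13, edgeR). TMM factors turned the direction, at 0.10 (adjusted p = 0.50, edgeR), so no direction can be given for this gene.

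hbbe1.2 (ENSDARG00000090689) lies inside the span of the hbbe1.1 model, at chromosome 3 from 54868060 to 54868837. The copies share much of their sequence, and a read pair that fits both may have been counted on either, so the split between them is uncertain. Control pools of hbbe1.2 held 37.8 to 80.5 CPM (median 53.0) and TP pools 37.2 to 63.1 CPM (median 46.6), again overlapping. The log2 fold change was -0.13 (95% interval -0.42 to 0.15, adjusted p = 0.45, edgeR), and 0.21 with TMM factors (adjusted p = 0.20).

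hbbe2 (ENSDARG00000045143), a beta globin of the cluster on chromosome 12 (20227991 to 20228755), held 17.4 to 38.1 CPM in control pools (median 24.3) and 18.3 to 28.3 CPM in TP pools (median 23.3). All TP pools lay inside the control range. Its log2 fold change was -0.12 (95% interval -0.37 to 0.13, adjusted p = 0.44, edgeR), and 0.22 with TMM factors (adjusted p = 0.13). hbae3 (ENSDARG00000079305, chromosome 3 from 54891985 to 54893256) held 56.8 to 121 CPM in control pools (median 89.3) and 59.5 to 102 CPM in TP pools (median 74.3). Here too the TP pools stayed inside the control range. The log2 fold change was -0.20 (95% interval -0.46 to 0.056, adjusted p = 0.19, edgeR), and 0.14 with TMM factors (adjusted p = 0.32).

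Single globin transcripts were tested as well. The 4 globin genes have 10 annotated transcripts. Their log2 fold changes ran from -0.34 to -0.093 with library totals and from 0.0072 to 0.26 with TMM factors. With library totals none of the 10 passed the threshold in edgeR and 2 had an unadjusted p under 0.05. The lowest adjusted p was 0.055, for a transcript of hbbe1.1. Over all transcripts tested, 40.2% passed the threshold. Their share at an unadjusted p of 0.05 was not worked out, so the count of 2 has no background. With library totals, the lowest of the lower bounds of the 4 gene intervals was -0.49 on the log2 scale, for hbbe1.1.

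The matched hemoglobin genes together took a small share of the libraries. These were 12 alpha and beta globin genes of both clusters, without the beta globins hbbe1.3, hbba1 and hbba2, which were not matched, so the share and the chain ratio lack these genes. Control libraries gave 0.0254% to 0.0521% of all counts (0.0362% ± 0.00853, SD, n = 8) and TP libraries 0.0257% to 0.0425% (0.0323% ± 0.00585). The groups overlapped and the ratio of means was 0.893 (2-sided exact permutation test, p = 0.31). Without ribosomal protein and mitochondrial counts in the denominator the ratio was 0.955 (p = 0.69, exact permutation test). The balance of chains was 0.892 ± 0.0592 alpha globin counts per beta globin count in control and 0.934 ± 0.0541 in TP libraries. No difference of these means was detected (p = 0.16, exact permutation test). The cluster on chromosome 12 gave 7.24% ± 0.485 of globin counts in control and 7.42% ± 0.460 in TP libraries (p = 0.45, exact permutation test).

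cahz (ENSDARG00000011166), the carbonic anhydrase of zebrafish red cells, is found on chromosome 2 (29493850 to 29501875). Control pools held 25.8 to 39.7 CPM (median 29.7) and TP pools 14.5 to 21.1 CPM (median 15.6). No TP pool reached the lowest control pool, a separation also seen in 22.8% of all genes tested (20.9% with TP lower) and in none of the other 8 erythroid genes. Means were 30.5 ± 4.39 and 16.6 ± 2.42 CPM (SD, n = 8), so that cahz fell by 0.88 on the log2 scale (SE 0.10, adjusted p = 3.3e-07, edgeR). With TMM factors it was -0.53 (adjusted p = 8.2e-05). Both annotated transcripts fell, the 1841-base one by 0.89 and the 1627-base one by 0.86 on the log2 scale (adjusted p = 1.1e-07 and 3.7e-06, edgeR). The longer one took 59.6% of the gene's counts in control and 59.2% in TP libraries.

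slc4a1a (ENSDARG00000012881) encodes the anion exchanger band 3, the protein that trades bicarbonate for chloride and anchors the membrane skeleton of red cells. Its position is chromosome 3, 19916121 to 19944785, far from the globin cluster. Control pools held 8.27 to 21.1 CPM (median 16.0) and TP pools 6.78 to 9.89 CPM (median 8.03). All 8 TP pools were below the control median and 5 were below the lowest control pool, so the groups touched only through the low end of the control range. Means were 14.6 ± 4.17 and 8.22 ± 0.950 CPM (SD, n = 8), so that slc4a1a fell by 0.83 on the log2 scale (SE 0.15, adjusted p = 8.7e-05, edgeR). With TMM factors it was -0.48 (adjusted p = 0.0047).

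The control values of slc4a1a differed by library number, the number in the library title, whose meaning the labels do not give. Control libraries 1 to 4 held 15.8 to 21.1 CPM and control libraries 5 to 8 held 8.27 to 16.2 CPM. Within numbers 1 to 4 the log2 fold change was -1.03 (adjusted p = 5.0e-04, edgeR), and within numbers 5 to 8 it was -0.57 (adjusted p = 0.0091). cahz gave -0.87 and -0.88 in the same subsets. The difference between the subsets was not tested. All 3 transcripts of slc4a1a fell, by 0.96, 0.77 and 0.77 on the log2 scale (adjusted p = 5.8e-05, 1.3e-04 and 0.0032, edgeR). With TMM factors the first, of 3554 bases, passed the threshold (adjusted p = 0.0023), and the others did not (adjusted p = 0.021 and 0.088).

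epb41b (ENSDARG00000029019, chromosome 16 from 26576173 to 26614727) encodes a protein of the red cell membrane skeleton that ties spectrin and actin to the membrane. Control pools held 1.22 to 3.46 CPM (median 2.13) and TP pools 1.19 to 2.90 CPM (median 2.02). The means, 2.15 ± 0.745 and 2.14 ± 0.541 CPM (SD, n = 8), were close to each other and the groups overlapped. The log2 fold change was -0.0084 (95% interval -0.42 to 0.41, adjusted p = 0.98, edgeR) and 0.36 with TMM factors (adjusted p = 0.15). Over all 8 libraries of a group the gene held 608 counts in control and 606 in TP, and 24 to 146 counts in single control libraries.

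alas2 (ENSDARG00000038643, chromosome 8 from 21321758 to 21338179) encodes the red cell form of aminolevulinate synthase, which performs the first step of heme synthesis. Control pools held 5.08 to 10.3 CPM (median 9.34) and TP pools 5.56 to 10.5 CPM (median 6.54). The ranges were nearly the same, although 7 of 8 TP pools lay under the control median. Means of 8.37 ± 1.86 and 7.07 ± 1.65 CPM (SD, n = 8) gave a log2 fold change of -0.25 (95% interval -0.54 to 0.046, adjusted p = 0.16, edgeR), and TMM factors turned it to 0.10 (adjusted p = 0.56).

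gata1a (ENSDARG00000013477, chromosome 11 from 25174298 to 25181240) encodes the zinc finger transcription factor that directs red cell genes, globins included. Control pools held 3.36 to 4.50 CPM (median 4.10) and TP pools 1.47 to 3.76 CPM (median 3.35). All 8 TP pools were below the control median and 4 were below every control pool. Control and TP means were 4.04 ± 0.439 and 3.08 ± 0.736 CPM (SD, n = 8). The log2 fold change of -0.39 (95% interval -0.69 to -0.089) did not pass the threshold of 0.01 (adjusted p = 0.034, edgeR), and with TMM factors it was -0.049 (adjusted p = 0.79). It was -0.62 within library numbers 1 to 4 (adjusted p = 0.062, edgeR) and -0.15 within numbers 5 to 8 (adjusted p = 0.43).

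The 2 annotated transcripts of gata1a differed in level and in their values under TP. A 730-base transcript (chromosome 11 from 25174727 to 25175537) took 87.7% of the gene's counts in control and 93.8% in TP libraries. Its means were 3.50 ± 0.544 and 2.90 ± 0.733 CPM, a log2 fold change of -0.28 (adjusted p = 0.16, edgeR), and 0.075 with TMM factors (adjusted p = 0.72). The 1657-base transcript, which spans the whole gene, was at 0.323 to 0.817 CPM in control pools (median 0.481) and at 0.0594 to 0.492 CPM in TP pools (median 0.172). In 7 of 8 TP pools it was below the lowest control pool, and pool 4 was the exception. It fell by 1.46 on the log2 scale (standard error 0.36, adjusted p = 0.0019, edgeR), from 142 counts over 8 control libraries to 54 over 8 TP libraries. With TMM factors the log2 fold change was -1.11 and no longer passed (adjusted p = 0.019). Reads from sequence that both transcripts share may have been counted on either, and the difference between the transcripts was not tested.

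**Figure D2:**
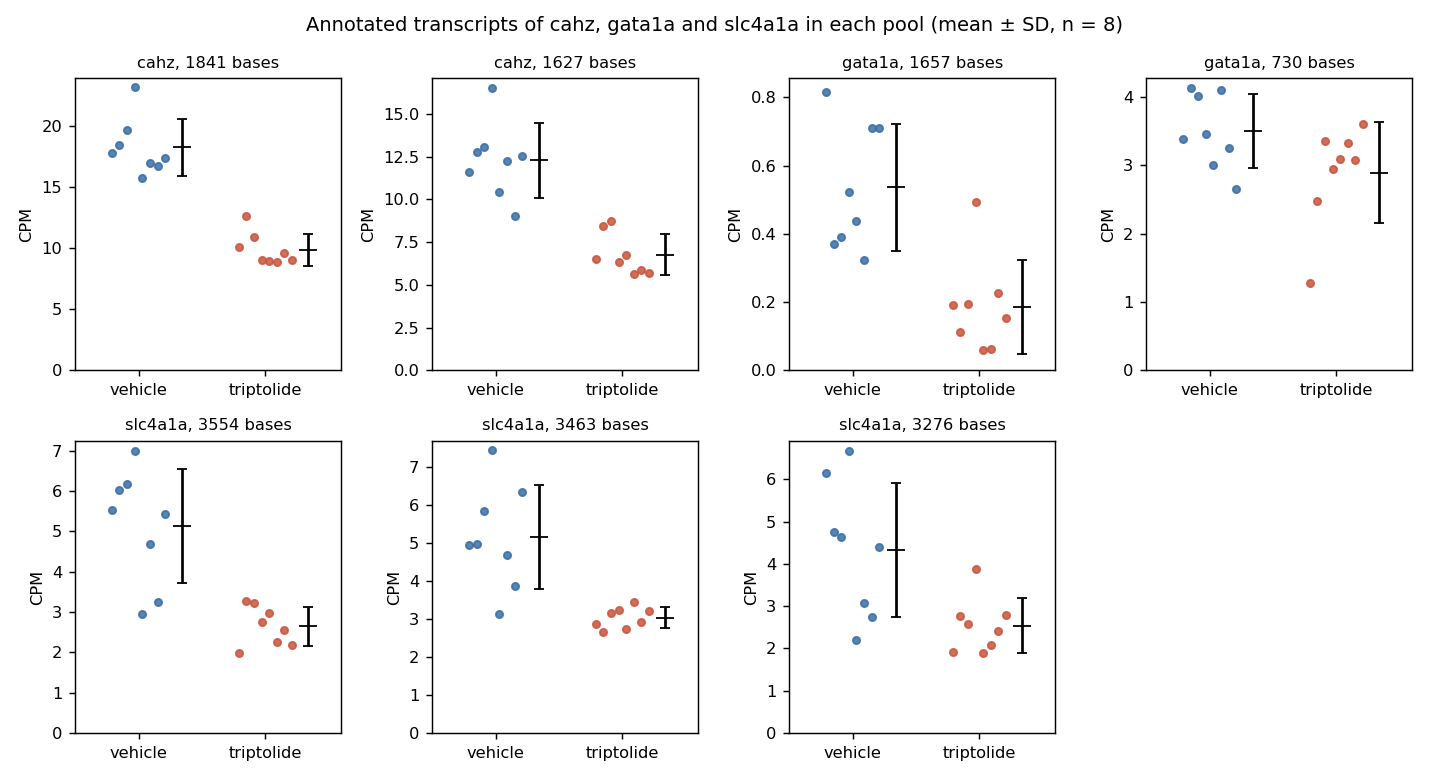
CPM (vertical axes, from 0) of single annotated transcripts of cahz, slc4a1a and gata1a in 8 control (vehicle) and 8 TP (triptolide) pools, 1 point per pool, with bars for the mean ± SD. Both cahz transcripts separate the groups, and the 1657-base gata1a transcript lies under the lowest control pool in 7 of 8 TP pools.

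Of the 22 annotated transcripts of the 9 genes, 20 had enough counts to test. With library totals 6 were lower and 0 higher (edgeR), while 36.7% of all transcripts tested were lower and 40.2% passed in either direction. These were the 2 of cahz, the 3 of slc4a1a and the 1657-base one of gata1a. With TMM factors the 2 of cahz (adjusted p = 4.2e-05 and 7.0e-04, edgeR) and the 3554-base one of slc4a1a (adjusted p = 0.0023) still passed. The other slc4a1a transcripts and the gata1a one did not. The share of all transcripts that passed with TMM factors was not worked out. A 618-base transcript of alas2, with 18 counts in control and 14 in TP libraries, and a 500-base one of epb41b, with 2 and 0, stayed below the filter.

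**Figure D3:**
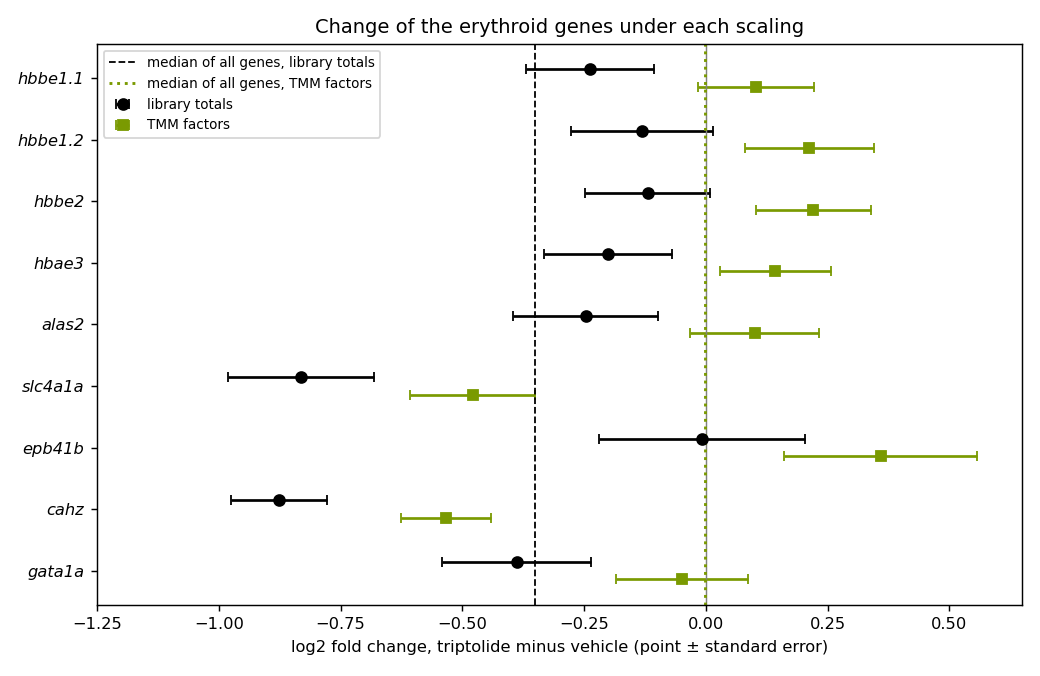
Log2 fold change of TP against control (horizontal axis, point ± standard error) for the 9 erythroid genes, with library totals (black circles) and with TMM factors (green squares). Vertical lines mark the median of all genes tested, -0.35 with library totals and -0.00107 with TMM factors. cahz and slc4a1a lie below that median under both, and the 4 globins, alas2 and epb41b lie above it.

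Relative to the median of all genes, the 9 genes fell into different places. The globins lay above it, hbbe1.1 by 0.11, hbae3 by 0.15, hbbe1.2 by 0.22 and hbbe2 by 0.23 on the log2 scale. alas2 and epb41b lay above it by 0.10 and 0.34. gata1a was close to it, at -0.038, while slc4a1a and cahz were below it, at -0.48 and -0.53. These positions are a description, and none of the 7 genes other than cahz and slc4a1a passed the threshold under TMM factors or DESeq2.

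A measure that needs no library total is the share of each gene in the summed counts of the 9 genes. This comparison was chosen after the data were seen and uses the same counts, so it adds no separate support for the calls of cahz and slc4a1a. cahz made up 8.30% to 10.8% of these counts in control pools and 5.23% to 7.40% in TP pools, without overlap. slc4a1a made up 3.41% to 4.84% in control pools and 2.41% to 3.36% in TP pools, also without overlap. For both genes the 2-sided exact permutation p was 1.6e-04, the smallest that 8 against 8 pools can give (adjusted p = 7.0e-04). The p-values of the other shares are given unadjusted. In all, 9 shares were compared.

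Shares add up to a whole, so a lower share of some genes raises that of others. hbbe2 went from 7.40% ± 0.466 to 8.25% ± 0.465 of the counts (p = 0.0014, exact permutation test), above the highest control pool in 6 of 8 TP pools. hbbe1.2 went from 15.3% ± 0.997 to 17.0% ± 1.02 (p = 0.0039, exact permutation test). For hbbe1.1, at 33.6% ± 0.825 and 34.2% ± 1.42, no difference of means was detected (p = 0.34, exact permutation test). For hbae3 the shares were 25.9% ± 1.37 and 27.2% ± 1.13 (p = 0.057, exact permutation test). The exact permutation p was 0.80 for alas2, 0.16 for epb41b and 0.38 for gata1a.

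Control pools with more globin RNA also held more of several other erythroid transcripts, while among TP pools only hbae3 passed the correction. The summed beta globins hbbe1.1, hbbe1.2 and hbbe2 ran from 139.8 to 278 CPM in control and from 132 to 218 CPM in TP pools. Against this sum, 6 genes were compared within each group over 8 pools, 12 relations in all, with 2-sided exact permutation p-values. All values of a pool share its library and its total. How large a share of all genes follows this sum as closely was not worked out.

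Among control pools hbae3 followed the beta globins closely, with a Pearson r of 0.95 (p = 2.0e-04, adjusted p = 0.0024, exact permutation test) and a Spearman rho of 0.93 (p = 0.0022, adjusted p = 0.0089). slc4a1a had an r of 0.95 (p = 4.5e-04, adjusted p = 0.0027, exact permutation test) and a rho of 0.93 (p = 0.0022, adjusted p = 0.0089). cahz had an r of 0.95 (p = 0.0010, adjusted p = 0.0031, exact permutation test) and a rho of 0.95 (p = 0.0011, adjusted p = 0.0089). These 3 relations held without the 2 pools farthest from the median globin level, at an r of 0.90, 0.93 and 0.81. alas2 had an r of 0.82 (p = 0.0039, adjusted p = 0.0093, exact permutation test) and a rho of 0.86 (p = 0.011, adjusted p = 0.026), and 0.94 for r without those pools. epb41b gave an r of 0.62 (adjusted p = 0.16, exact permutation test) and gata1a one of 0.080 (adjusted p = 0.93, exact permutation test).

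Among TP pools hbae3 again followed the beta globins, with an r of 0.96 (p = 9.9e-04, adjusted p = 0.0031, exact permutation test), a rho of 0.90 (p = 0.0046, adjusted p = 0.014) and an r of 0.82 without the 2 farthest pools. None of the other 5 genes passed the correction. slc4a1a had an r of 0.64 (adjusted p = 0.16, exact permutation test). cahz had an r of 0.80 (p = 0.045, adjusted p = 0.089, exact permutation test) that rested on 2 pools, since r was -0.32 without them. alas2, epb41b and gata1a had an r of 0.35, 0.049 and 0.19 (adjusted p = 0.56, 0.93 and 0.85, exact permutation test). The difference between the control and TP relations was not tested.

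The control relations lay partly along the library numbers, since the beta globin sum was 189.5 to 278 CPM in control libraries 1 to 4 and 139.8 to 209.8 CPM in 5 to 8. After the means of these subsets were removed, a step added after seeing the data and without a test, the control r was 0.92 for hbae3, slc4a1a and cahz, 0.66 for alas2, 0.31 for epb41b and -0.47 for gata1a. In TP pools it was 0.95 for hbae3, 0.55 for slc4a1a, 0.71 for cahz, 0.18 for alas2, -0.53 for epb41b and 0.57 for gata1a. Each subset alone holds 4 pools of a group, too few for a correlation of its own.

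**Figure D4:**
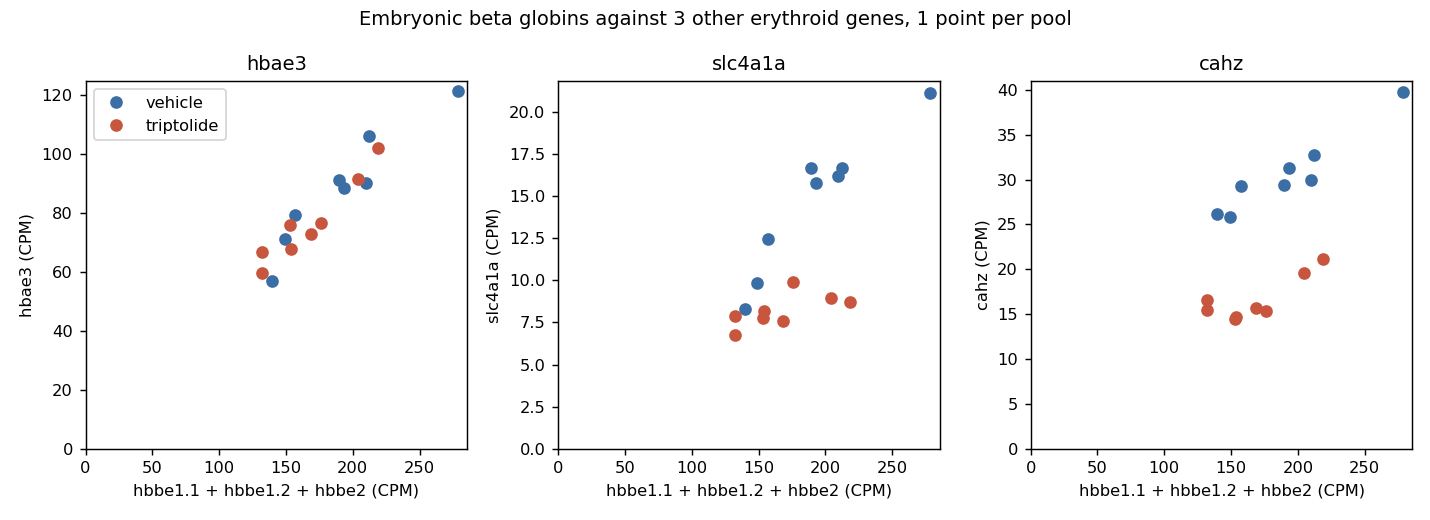
CPM of single erythroid genes (vertical axes) against the summed CPM of the beta globins hbbe1.1, hbbe1.2 and hbbe2 (horizontal axis) in 8 control (vehicle) and 8 TP (triptolide) pools, 1 point per pool. hbae3 rises with the beta globins in both groups (r of 0.95 and 0.96), and the TP points of cahz and slc4a1a lie below the control points at like globin levels.

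Outside the 9 genes, likeness was measured as the Pearson correlation of log2 CPM with their mean standardized profile over 16 libraries, with group means removed. The 10 highest of 21411 genes were stac3 (0.93), nutf2l (0.93), cyp2ad2 (0.93), si:ch211-133l5.7 (0.92), the alpha globin hbae1.3 (0.91), cox7a2a (0.91), serpinh1a (0.91), the alpha globin hbae1.1 (0.91), ndufb11 (0.91) and KRTCAP2 (0.91). They are the highest of many candidates, share libraries and totals with the profile, and carry no test. The 9 genes themselves had correlations with the profile from 0.33 for gata1a and 0.63 for epb41b to 0.95 for hbbe1.1, each being part of it. alas2 (0.78) and cahz (0.80), like gata1a and epb41b, lay below all 10 of these other genes, most of which are not globins. Under TP, serpinh1a, a collagen chaperone, had a log2 fold change of -1.14 (adjusted p = 1.6e-08, edgeR), cyp2ad2, a cytochrome P450, one of -0.64 (adjusted p = 8.4e-06), and stac3, of skeletal muscle, one of 0.21 (adjusted p = 0.0087).

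None of the other embryonic alpha globins on chromosome 3 passed the test. hbae1.1, hbae1.2 and hbae1.3, near-identical copies with overlapping models, were at 23.5 ± 6.33, 34.0 ± 8.83 and 24.2 ± 6.64 CPM in control and 21.9 ± 4.16, 33.6 ± 6.37 and 22.9 ± 4.23 CPM in TP larvae (SD, n = 8). On the log2 scale they differed by -0.10, -0.016 and -0.082 (adjusted p = 0.58, 0.93 and 0.65, edgeR), and all were above 0 with TMM factors. On chromosome 12, hbae5 had a log2 fold change of -0.50 (adjusted p = 0.25, edgeR) and hbae4 held 82 counts in control and 72 in TP libraries. The beta globins hbbe1.3, hbba1 and hbba2 were not matched by symbol and were not analysed here. Of the matched genes, those left were close to silent, hbbe3 with 2 and 4 counts, hbaa1 with 16 and 28, and hbaa2 with 0 and 2, so the matched adult alpha chains were barely detected.

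Of the globins that act outside red cells, 2 fell. cygb2, a cytoglobin, fell from 7.44 ± 0.728 to 3.51 ± 0.494 CPM (log2 fold change -1.08, adjusted p = 3.1e-08, edgeR). The neuroglobin of neurons, ngb, fell from 22.3 ± 3.06 to 13.5 ± 2.02 CPM (-0.73, adjusted p = 4.4e-06, edgeR). In both the groups did not overlap, as in 22.8% of all genes tested (20.9% with TP lower). cygb1, at 111 ± 8.13 and 100.3 ± 4.22 CPM, had a log2 fold change of -0.15 (adjusted p = 0.032), which became a rise of 0.20 with TMM factors (adjusted p = 0.0080). mb, myoglobin, had -0.27 (adjusted p = 0.20), and xgb held 54 and 40 counts. Of the 8 tested globins outside the 9 genes, 4 were hemoglobins (hbae1.1, hbae1.2, hbae1.3 and hbae5). In edgeR 2 of the 8 fell (25.0%, against 41.9% of all genes) and 0 rose (against 4.59%), with a median of -0.21. At an unadjusted p of 0.05 in edgeR, 3 fell and 0 rose, with no share of all genes worked out at that p. DESeq2 called 2 lower and 1 higher, against 17.8% and 17.9% of all genes.

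Beyond alas2, 6 of 18 heme synthesis genes fell (33.3%, against 41.9% of all genes) and 0 rose (against 4.59%, edgeR), with a median of -0.20. At an unadjusted p of 0.05 in edgeR, 8 fell and 1 rose, with no share of all genes worked out at that p. DESeq2 called 2 lower and 4 higher, against 17.8% and 17.9% of all genes. hmbsb, a hydroxymethylbilane synthase, fell from 9.25 ± 1.07 to 4.29 ± 0.984 CPM, by 1.11 on the log2 scale (adjusted p = 4.0e-07, edgeR). uros, the next enzyme of the pathway, fell by 0.73 (adjusted p = 4.7e-07), and both also fell with TMM factors. hmbsa and alad had log2 fold changes of -0.63 and -0.58 (adjusted p = 5.0e-05 and 4.7e-04), and lost the call with TMM factors (adjusted p = 0.017 and 0.067). Of 11 genes of heme breakdown and export 3 fell (27.3%, against 41.9%) and 0 rose (against 4.59%, edgeR), with a median of -0.21. In edgeR 5 fell and 0 rose at an unadjusted p of 0.05, again without a share of all genes. DESeq2 called 1 of the 11 lower and 2 higher, against 17.8% and 17.9% of all genes. hmox1a, the inducible heme oxygenase, fell from 36.9 ± 4.82 to 14.9 ± 2.06 CPM, or by 1.31 (adjusted p = 1.5e-09, edgeR). The heme transporter slc48a1b fell by 0.52 (adjusted p = 1.6e-06) and blvrb, a biliverdin reductase, by 0.32 (adjusted p = 0.0056), and neither passed with TMM factors (adjusted p = 0.043 and 0.83).

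Among 13 tested genes of iron uptake 3 fell (23.1%, against 41.9%) and 1 rose (7.69%, against 4.59%), with a median of -0.20. With TMM factors 1 of them fell and 3 rose, against 16.5% and 15.9% of all genes. hamp, the iron hormone hepcidin made by the liver, fell from 8.16 ± 2.96 to 2.46 ± 0.666 CPM (log2 fold change -1.74, adjusted p = 1.3e-06, edgeR), and tfa, plasma transferrin, also of the liver, rose from 538 ± 75.9 to 725 ± 102 CPM (0.43, adjusted p = 8.1e-04). slc25a28, a mitochondrial iron carrier, and aco1, an iron-responsive regulator, fell by 0.51 and 0.43 (adjusted p = 2.0e-07 and 0.0017), and lost the call with TMM factors (adjusted p = 0.028 and 0.37). Of 22 genes of the red cell membrane and skeleton 8 fell (36.4%, against 41.9% of all genes) and 3 rose (13.6%, against 4.59%), with a median of -0.24. The 4 with the largest change were the water channel aqp1a.1 (-1.29, adjusted p = 6.5e-10), slc4a1b (-0.85, adjusted p = 2.2e-07), rhbg (-0.74, adjusted p = 1.3e-08) and the adducin add2 (-0.67, adjusted p = 9.7e-04, edgeR). In zebrafish larvae slc4a1b and rhbg are known from cells of the skin rather than from red cells. With TMM factors 3 of these 22 genes fell and 9 rose, against 16.5% and 15.9% of all genes. Not all 4 named genes therefore kept their call with these factors. The 3 genes that rose with library totals are not named, since the 4 were picked by the size of their change.

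Of 20 tested transcription factors of the red cell lineage, 13 were lower (65.0%, against 41.9% of all genes), with a median of -0.57 (edgeR). A further 1 was higher (5.0%, close to the 4.59% of all genes). With TMM factors 4 of the 20 fell and 1 rose, while 16.5% of all genes fell and 15.9% rose. Most of these calls therefore depended on the scaling, as lower calls over all genes also did. klf17, a Krüppel-like factor of the early blood lineage, fell from 6.62 ± 1.15 to 2.39 ± 0.790 CPM (-1.46, adjusted p = 3.9e-07, edgeR). myb and tal1, factors of blood progenitors, fell by 0.91 each (adjusted p = 3.3e-08 and 1.5e-05), and bcl11aa, whose human counterpart represses fetal globin genes, by 0.89 (adjusted p = 1.2e-05). All 4 fell with TMM factors too, and in all 4 the groups did not overlap, against 22.8% of all genes (20.9% with TP lower). They were picked as the largest changes past the threshold in this list, so neither result adds separate support. The single rise, named after its values were seen, was hemgn, a nuclear protein of blood cells, from 6.68 ± 0.905 to 11.6 ± 1.59 CPM (0.80, adjusted p = 2.0e-06, edgeR).

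In erythropoietin signalling 9 of 16 genes fell (56.2%, against 41.9%) and 1 rose (6.25%, against 4.59%), with the median of -0.35 that all genes had. With TMM factors 5 of them fell and 2 rose, against 16.5% and 15.9% of all genes. epoa, the hormone itself, rose from 0.498 ± 0.176 to 1.28 ± 0.242 CPM (1.35, adjusted p = 1.9e-05, edgeR), on 142 and 364 counts. The feedback inhibitor socs3a, listed under 2 gene IDs that may share reads, fell by 1.69 and 1.72 (adjusted p = 8.4e-08 and 1.2e-07), and socs1a by 1.36 (adjusted p = 2.2e-04). These calls also held with TMM factors. Of 18 red cell enzymes 8 fell (44.4%, close to the 41.9% of all genes) and 0 rose (against 4.59%, edgeR), with a median of -0.26. At an unadjusted p of 0.05 in edgeR, 9 fell and 2 rose, with no share of all genes worked out at that p. DESeq2 called 0 lower and 6 higher, against 17.8% and 17.9% of all genes. The ubiquitin enzyme ube2o (-0.70, adjusted p = 0.0013), hk1 (-0.57, adjusted p = 0.0034) and gpia (-0.44, adjusted p = 5.3e-04) of glycolysis, and the carbonic anhydrase ca2 (-0.44, adjusted p = 5.6e-04) led the list. None of these 4 passed with TMM factors (adjusted p from 0.046 for ube2o to 0.37 for ca2).

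**Figure D5:**
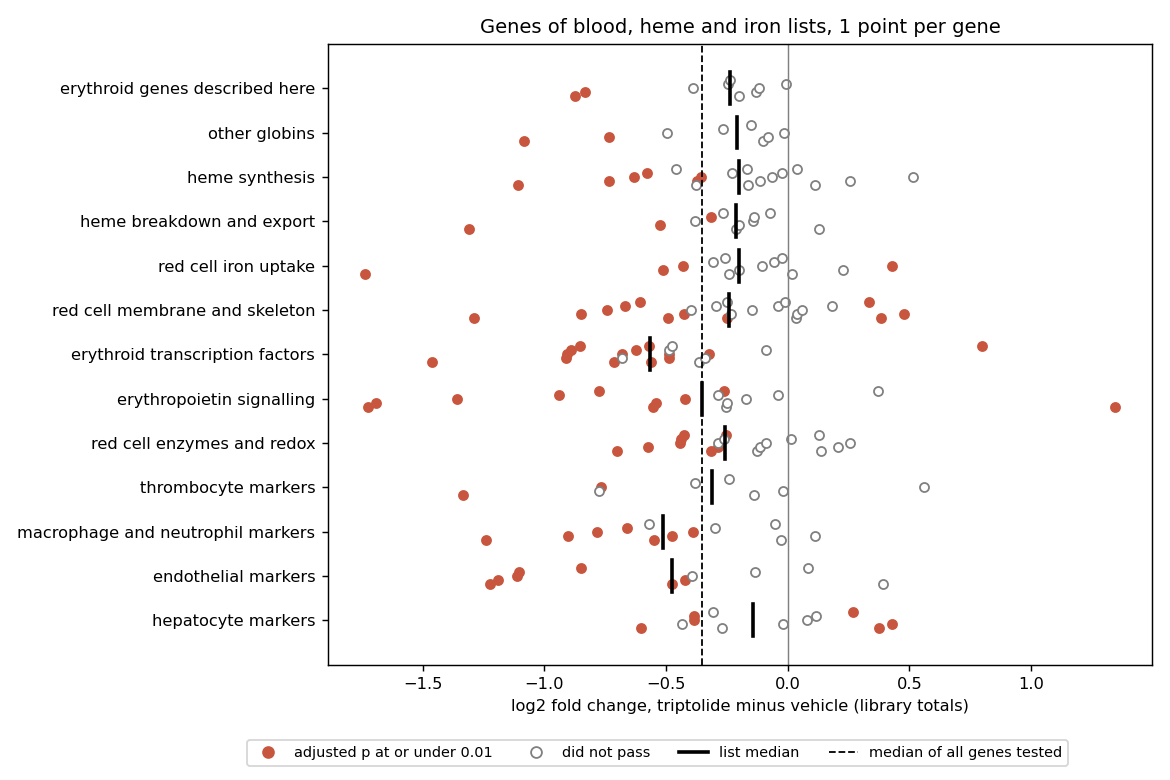
Log2 fold change of TP against control with library totals (horizontal axis), 1 point per gene, for the 9 erythroid genes and 12 lists of related genes and of markers of other cell types (rows). Filled points passed an adjusted p of 0.01, short bars mark list medians, and the dashed line marks the median of all genes, -0.35. The erythroid transcription factors have a median of -0.57, and the 9 erythroid genes one of -0.24.

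Markers of other cell types moved in the same pools. Summed thrombocyte markers were at 164 to 196 CPM in control and 71.6 to 89.9 CPM in TP pools. Such sums weigh abundant genes most, and the median log2 fold change of this list was -0.31. At an unadjusted p of 0.05 in edgeR, 4 of 8 tested genes fell and 0 rose, with no share of all genes worked out at that p. DESeq2 called 2 lower and 1 higher, against 17.8% and 17.9% of all genes. At the threshold 2 fell (25.0%, against 41.9% of all genes) and 0 rose (against 4.59%, edgeR). These were thbs1b (-1.33) and fli1a (-0.77), both also expressed outside thrombocytes. Summed endothelial markers were at 129 to 163 and 88.0 to 110.04 CPM. Of 11 endothelial markers 7 fell (63.6%, against 41.9%) and 0 rose (against 4.59%), led by plvapa (-1.22), pecam1 (-1.19), egfl7 (-1.11) and flt4 (-1.11). Of 12 macrophage and neutrophil markers 7 fell (58.3%, against 41.9%) and 0 rose (against 4.59%), led by mfap4 (-1.24), lyz (-0.90), srgn (-0.79) and mpeg1.1 (-0.66). Their sum was 1017 to 1276 CPM in control and 1105 to 1382 CPM in TP pools. This sum does not show the typical marker, since the list median was -0.51 and the highest log2 fold change 0.11. Of 12 hepatocyte markers 3 fell (25.0%, against 41.9%), fgb (-0.60), fga (-0.39) and serpina1l (-0.39), and 3 rose (25.0%, against 4.59%), among them tfa. With TMM factors, 5 endothelial and 3 macrophage and neutrophil markers fell and 1 of each list rose, while 5 hepatocyte markers rose and none fell. Over all genes, 16.5% fell and 15.9% rose with these factors. The part of these other cells in the values of the 9 genes was not tested.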

How the data were processed

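RNA of whole larvae was prepared with the TruSeq Stranded Total RNA kit and sequenced as read pairs. The authors aligned pairs with Bowtie2 to Ensembl release 84 transcripts and deposited raw counts per transcript, not normalized, with positions on GRCz10. FastQC, SAMtools and limma are also named in the submitters' processing notes. The sources used here do not give tool versions, the use of strand in counting or any removal of globin RNA. Pairs that fit several transcripts or gene copies may have been counted on any of them, and without strand a gene and its antisense partner cannot be told apart. Every deposited count was even.

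Counts of 57264 transcripts were summed over 31812 gene IDs. The 209 transcripts without an ID (0.220% to 0.282% of counts) entered the totals and the transcript fit, not the gene sums. The quasi-likelihood method of edgeR 4.0.16, run in R 4.3.3, compared 8 control with 8 TP libraries, with library totals as the only scaling as in the study's methods, genes kept by filterByExpr, and Benjamini-Hochberg adjustment over all genes tested. An adjusted p of 0.01 or less counted as changed. Standard errors were taken from the log2 fold change and the F statistic (the first over the root of the second). CPM per kb sums each transcript's CPM over its length. Exact permutation tests used scipy 1.17.1. The scripts were tested on simulated counts.

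The 9 members and the 12 lists (187 symbols, of which 12 were not matched) were chosen with earlier results of these data known. Named genes are the members, all other globins, from each other list the 4 (or fewer) changed genes that moved most, at a mean of at least 1 CPM, and the 10 most alike genes. The main fit did not pair libraries by number. Correlations of same-numbered libraries ran from -0.14 to 0.22. Alternatives were TMM factors, DESeq2 1.42.0, limma 3.58.1 on scaled log2 counts with a pseudocount of 1, totals without ribosomal protein and mitochondrial transcripts, other filters, a replicate block, each library left out, library numbers 1 to 4 or 5 to 8, the most abundant transcript, an adjusted p of 0.05 and, after seeing the data, halved counts, shares within the 9 genes and correlations with library-number means removed. No sequence is shown, and imaging, histology and qPCR were not analysed here.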

Additional observations from a re-analysis of the deposited data

Results flagged for a closer look

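Of 78 groups of 8 values checked with Dixon's criterion, 4 held a library far from the others, and chance alone gives about 5% of such groups. TP library 4 was the highest of its group for the 1657-base transcript of gata1a, at 0.492 CPM, and for the 3276-base transcript of slc4a1a, at 3.89 CPM. TP library 6 had the highest ratio of alpha to beta globin counts, at 1.05. Control library 1 had the highest level of hbae5, at 1.45 CPM.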

How the results depend on the processing

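The count of 2 changed erythroid genes stayed at 2 under every alternative except an adjusted p of 0.05, where gata1a made it 3 (log2 fold change -0.39, adjusted p = 0.034, edgeR). Scaling turned the direction of genes that were not called. With TMM factors and with DESeq2, in that order, the log2 fold change was 0.10 and 0.11 for hbbe1.1, 0.21 and 0.22 for hbbe1.2, 0.22 and 0.23 for hbbe2, 0.14 and 0.15 for hbae3, 0.10 and 0.11 for alas2, 0.36 and 0.37 for epb41b, 0.25 and 0.26 for hbae1.1, 0.33 and 0.34 for hbae1.2, 0.27 and 0.28 for hbae1.3, 0.20 and 0.20 for cygb1 and 0.078 and 0.084 for mb. blvrb, called with library totals, was at 0.026 and 0.033. In library numbers 5 to 8 it was 0.061 for hbbe1.2, 0.087 for epb41b, 0.17 for hbae1.1, 0.16 for hbae1.2, 0.097 for hbae1.3 and 0.0032 for mb. Totals without ribosomal protein and mitochondrial transcripts gave 0.093 for epb41b, 0.081 for hbae1.2 and 0.014 for hbae1.3, and limma gave 0.028 for epb41b and 0.0082 for hbae1.2. With 8 libraries in the fit, the lists had 51 changed genes in library numbers 1 to 4 and 73 in 5 to 8, against 78 with all libraries, and all genes 6772 and 8190, against 11380. The causes of the turned directions were not tested. Leaving out 1 library at a time gave 2 to 2 erythroid genes, 72 to 83 list genes and 10278 to 11634 of all genes, with hbbe1.1 at -0.30 to -0.15, hbbe1.2 at -0.20 to -0.016, hbbe2 at -0.18 to -0.0090, hbae3 at -0.27 to -0.12, alas2 at -0.35 to -0.20, cahz at -0.93 to -0.81, slc4a1a at -0.92 to -0.74, gata1a at -0.43 to -0.29, epb41b at -0.092 to 0.12, hbae1.2 at -0.093 to 0.075, hbae1.3 at -0.15 to 0.027 and the difference in globin share at -0.0054 to -0.0016 percentage points. A replicate block on the library number called 10702 genes and 2 erythroid genes and gave 0.018 for epb41b and 0.0068 for hbae1.2. For hbbe1.1 it gave -0.23 (adjusted p = 0.049, edgeR), which did not pass the threshold of 0.01. Whether the numbers pair the libraries is not known, as the labels do not give their meaning. Of 8 same-numbered pairs 3 correlated above 0.1, and 1 control library correlated best with its own number. Low counts limit the longer gata1a transcript, at 2 to 28 counts a library.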
